A study of Mus musculus with 2 samples.

Results

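Cadherins and immunoglobulin-type adhesion molecules hold cells to one another and to passing blood cells. The group described here comprises 8 genes, Cdh2, Cdh11, Cdh13, Vcam1, Icam1, Ncam1, Thy1 and Mcam, set by a list of gene names. The list was chosen with earlier results of these data known. Every probe set to which the platform annotation gives a single symbol from this group was taken, which gave 21 of 34945 such probe sets, or 8 of 18193 genes. The signals come from Affymetrix Mouse Genome 430 2.0 arrays hybridised with RNA of rib chondrocytes in culture, from mice aged 5 days whose strain label names C57BL/6 and CBA. One array represents miR-140 knockout cells and the other wild-type cells. The arrays were made to look for messenger RNAs regulated by miR-140, a microRNA of cartilage. How the deletion was made, the sex of the mice and how many mice gave each culture are not given in the sources used here. With 1 array per group there is no replicate spread and no test, so each difference below describes this pair of arrays.

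Cadherins are calcium-dependent receptors that bind like molecules on neighbouring cells, and the classical ones anchor to actin through catenins. Immunoglobulin adhesion molecules carry immunoglobulin folds outside the cell and bind either their own kind or integrins on another cell. In cartilage, N-cadherin and NCAM are known for the condensation of mesenchyme that precedes chondrocyte differentiation, whereas VCAM-1, cadherin-11 and Thy-1 are better known from fibroblasts, synovium and stromal progenitors. Mir140 gives rise to miR-140-5p and miR-140-3p. The 3p strand is shown, as listed in RefSeq (GRCm38.p6, chr8:107551288-107551308, plus strand), because no 5p sequence was available in the sources used here. The knockout is labelled as lacking miR-140, with no strand named. The capitals mark its seed, bases 2 to 8.
mmu-miR-140-3p: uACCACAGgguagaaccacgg

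All signals are log2 values from Robust Multichip Average (RMA), and each difference is the knockout minus the wild type on that scale. A gene is represented by its probe set of highest mean signal, and it counted as above the floor when the higher of its 2 values reached 7. That level was set by choice to leave out dim signal, and background was not measured. Of the 8 members 5 were above the floor (Cdh2, Cdh11, Vcam1, Icam1 and Ncam1), and Cdh13, Thy1 and Mcam were under it in both arrays. Over the 9897 genes above the floor the median difference was -0.05, and the central 95% lay between -0.69 and 0.47. The wild-type and knockout labels were not checked by a direct measurement of miR-140. Wwp2, whose intron holds Mir140, read 7.13 in the knockout array and 9.65 in the wild-type array. The other Wwp2 probe sets were lower in the knockout array too, with differences from -4.50 to -0.15, the last at signals under the floor. Xist read 10.60 in the knockout array and 7.01 in the wild-type array, so the cultures also differed in a transcript of female cells. Its other probe sets read 9.92 and 5.89 in the knockout array and 4.43 and 4.92 in the wild-type array. A difference from the sex of the cells and one from the genotype cannot be told apart in this pair of arrays.

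Among the members, Vcam1 and Cdh11 had higher signal in the knockout array and Icam1 had lower signal. At least 1.5-fold higher signal was found for 2 of the 5 members above the floor, Vcam1 and Cdh11, where 1.56% of all genes above the floor reached that fold. At least 1.5-fold lower signal was found for 1 member, Icam1, against 3.56% of all genes. At 2-fold, Vcam1 alone was higher, with a background of 0.475%, and no member was lower, with a background of 1.22%. The median difference of all 8 members was 0.19, with 5 higher and 3 lower, but Cdh13 and Mcam among the 5 and Thy1 among the 3 were under the floor. Over the 5 above the floor it was 0.20, with 3 higher and 2 lower, against -0.05 for all genes above the floor, of which 3957 of 9897 were higher. In so small a group, chosen with earlier results of these data known, these counts are a description. An excess over all genes cannot be read from them. In the same arrays, fibroblast and perichondrium markers had a median difference of 0.27, with 11 of 15 above the floor higher, 4 lower, and 4 at least 1.5-fold higher. All 9 cartilage matrix markers above the floor were at least 1.5-fold lower, with a median of -1.67. In bulk cultures, a change in the number of cells of a type and a change in RNA per cell cannot be told apart.

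**Figure D1:**
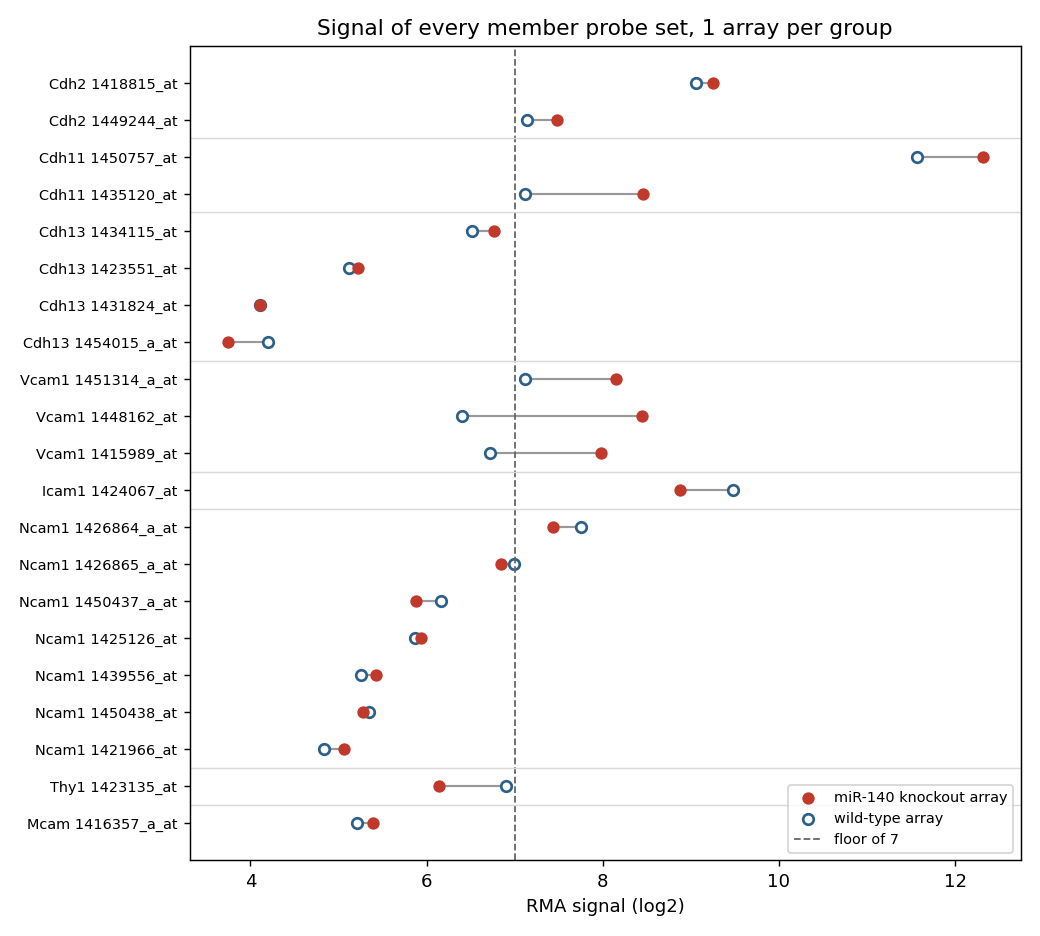
RMA signal (log2, horizontal axis) of all 21 member probe sets in the miR-140 knockout array (filled) and the wild-type array (open), with the floor of 7 as a dashed line. All Vcam1 and Cdh11 probe sets lie to the right in the knockout array, while the Icam1 and Thy1 probe sets lie to the left.

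Cdh11 encodes cadherin-11, a type II classical cadherin of osteoblasts and synovial fibroblasts. Its probe set 1450757_at read 12.31 in the knockout array and 11.57 in the wild-type array, a difference of 0.75 (1.68-fold higher). The other probe set, 1435120_at, read 8.46 in the knockout array and 7.11 in the wild-type array, a difference of 1.35 (2.54-fold higher). Both probe sets were thus higher in the knockout array and above the floor in both arrays. Only 94 of the 9897 genes (0.95%) had a larger positive difference than 0.75. Among genes with a mean signal over 10, as Cdh11 has, 1.87% were at least 1.5-fold higher. With the mean of both probe sets Cdh11 stood at 1.05, past 2-fold.

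Cdh11 lies on chromosome 8, within 5 Mb of Wwp2 and so of the deleted microRNA. Of the 81 genes of that window above the floor, with Wwp2 left out, none had a larger positive difference than Cdh11, and the median was -0.03. Cdh11 was the 1 gene of the window at least 1.5-fold higher, and 1 gene was at least 1.5-fold lower. The part that a chromosome segment carried along with the deleted allele may have in the Cdh11 value was not tested.

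Cdh2 encodes N-cadherin, the type I cadherin of mesenchymal condensation. Its probe set 1418815_at read 9.26 in the knockout array and 9.06 in the wild-type array, a difference of 0.20. Probe set 1449244_at read 7.48 in the knockout array and 7.14 in the wild-type array, a difference of 0.34. Both values were positive but small, and 12.4% of all genes had a larger positive difference than 0.20.

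Cdh13 encodes T-cadherin, which is tied to the membrane by a lipid anchor and lacks the cytoplasmic tail that binds catenins. Its 4 probe sets read from 3.74 to 6.77 in the knockout array and from 4.11 to 6.52 in the wild-type array, all under the floor. Their differences ran from -0.46 to 0.25, with 2 higher, 1 lower and 1 exactly equal. Like Cdh11 it lies on chromosome 8, but more than 5 Mb from Wwp2. These signals give no direction for Cdh13.

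**Figure D2:**
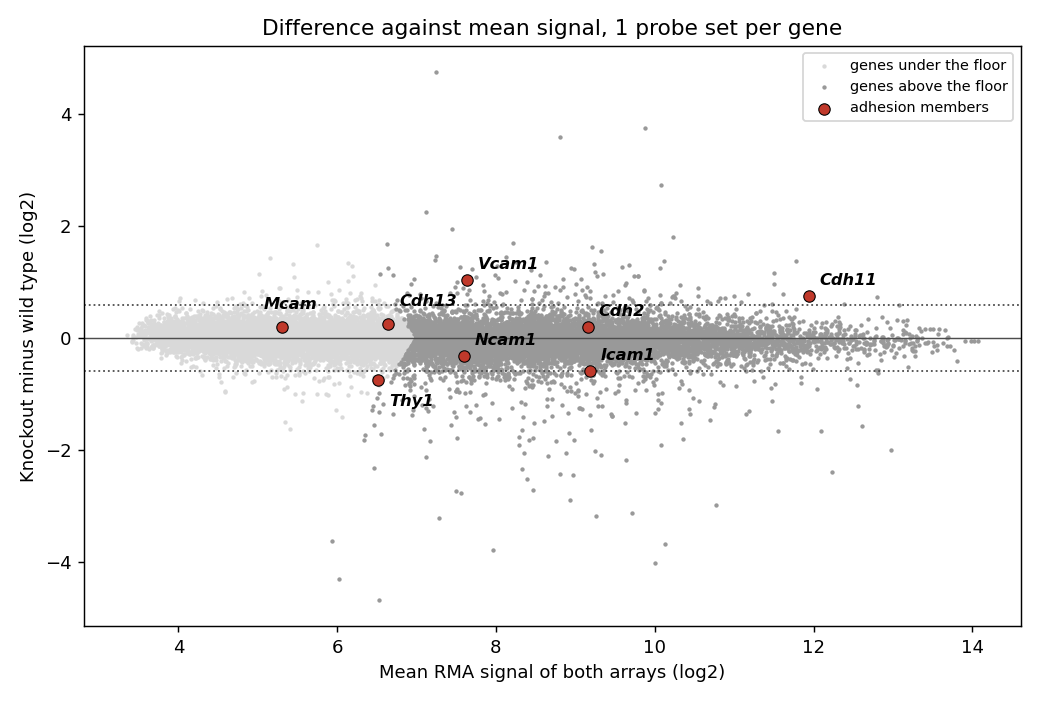
Knockout minus wild-type difference (log2) against the mean RMA signal of both arrays (log2), with 1 probe set per gene. Dark grey points are the 9897 genes above the floor, light grey points are genes under it, red points are the 8 members, and dotted lines mark 1.5-fold. Vcam1 and Cdh11 lie above the upper line, and Icam1 and the dim Thy1 lie at or below the lower line.

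Vcam1 encodes VCAM-1, the endothelial and stromal ligand of the integrin made of the Itga4 and Itgb1 products. Its probe set of highest mean signal, 1451314_a_at, read 8.15 in the knockout array and 7.11 in the wild-type array, a difference of 1.04 (2.05-fold higher). Probe set 1448162_at read 8.44 in the knockout array and 6.41 in the wild-type array, a difference of 2.04 (4.11-fold higher). Probe set 1415989_at read 7.98 in the knockout array and 6.72 in the wild-type array, a difference of 1.26 (2.40-fold higher). All 3 probe sets were at least 2-fold higher in the knockout array, although the size ran from 1.04 to 2.04. For comparison, the median span between probe sets of a gene was 0.25 over 3838 genes with at least 2 above the floor.

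The wild-type values of 2 Vcam1 probe sets lie under the floor, so part of the span depends on dim signal. With values under 7 raised to 7, the differences were 1.44 for 1448162_at and 0.98 for 1415989_at. Only 45 of 9897 genes (0.455%) had a larger positive difference than the 1.04 of the gene's main probe set. Among genes of similar brightness, with a mean signal of 7 to 8, 0.343% were at least 2-fold higher. Which transcript forms of Vcam1 each probe set reads was not determined.

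Icam1 encodes ICAM-1, the ligand of the leukocyte integrins that contain the Itgb2 chain. Its only probe set, 1424067_at, read 8.88 in the knockout array and 9.48 in the wild-type array, a difference of -0.60 (1.51-fold lower). Icam1 thus went the opposite way from Vcam1 in the same pair of arrays. Of all genes above the floor, 338 (3.42%) had a more negative difference. The value lies just past 1.5-fold and no longer reached it after a further quantile normalization or after lowess centring, where it was -0.57 in both.

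Icam1 and Vcam1 are both textbook targets of NF-kappaB, and Icam1 also of the interferon-activated STAT factors. The 250 bases before the start of Icam1 are printed because they hold letters of both kinds of element (RefSeq, GRCm38.p6, chr9:21015690-21015939, plus strand). No promoter sequence of Vcam1 was available in the sources used here, so the 2 genes were not compared. The capitals mark each match to GGNNNTTCC (NF-kappaB-like) and TTCNNNGAA (STAT-like), searched on both strands.
Icam1 promoter: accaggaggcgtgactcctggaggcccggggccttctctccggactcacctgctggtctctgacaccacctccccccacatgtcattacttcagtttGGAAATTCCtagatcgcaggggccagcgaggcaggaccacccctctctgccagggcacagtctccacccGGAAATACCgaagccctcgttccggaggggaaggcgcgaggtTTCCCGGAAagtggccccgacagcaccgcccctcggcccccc
GGAAATTCC starts 153 bases and GGAAATACC 84 bases before the start of the gene, and TTCCCGGAA starts 42 bases before it. The matches do not overlap. Of 32851 promoter windows of this length, 15.7% hold the first motif and 7.02% the second, and TATAAA, found in 12.4%, is not in this window. The motifs were chosen with the sequence in view, and a match shows letters and not binding.

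NF-kappaB genes themselves differed little. Of 14 listed, 13 were named on the platform and 10 were above the floor, 2 higher and 8 lower, and none reached 1.5-fold in either direction. Their median was -0.06, beside -0.05 for all genes. Rela, the p65 subunit, read 10.12 in the knockout array and 10.19 in the wild-type array. Nfkbia, the inhibitor that NF-kappaB induces, read 10.73 in the knockout array and 10.77 in the wild-type array, and its other probe sets differed by -0.14 to -0.48. The farthest of the list were Traf2 (-0.44), Nfkb2 (-0.25) and Myd88 (-0.11), a receptor adaptor, a subunit and an adaptor of interleukin-1 signalling.

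Ncam1 encodes NCAM, which binds its own kind and can be modified with polysialic acid. Of its 7 probe sets, 1426864_a_at was above the floor and read 7.43 in the knockout array and 7.75 in the wild-type array, a difference of -0.32. The other 6 read from 5.06 to 6.85 in the knockout array and from 4.84 to just under the floor of 7 in the wild-type array. Their differences ran from -0.28 to 0.22. Over all 7, 3 were higher and 4 lower, and their averaged signal put the gene at -0.05. The main probe set and the average therefore give different sizes for Ncam1, and with probe sets of 1 transcript only the sign turned (0.07, at a signal under the floor).

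Thy1 encodes Thy-1, a small lipid-anchored immunoglobulin protein used as a marker of fibroblasts and stromal progenitors. Its single probe set, 1423135_at, read 6.14 in the knockout array and 6.90 in the wild-type array, a difference of -0.76 (1.70-fold lower). Both values are under the floor, so this difference was not counted, and with low values raised to 7 it was 0. Mcam encodes a laminin-binding adhesion molecule of endothelium and pericytes. Its probe set 1416357_a_at read 5.39 in the knockout array and 5.21 in the wild-type array, a difference of 0.19 at signals well under the floor.

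Taken over probe sets, 9 of the 21 were above the floor, of which 5 reached 1.5-fold higher and 1 reached 1.5-fold lower signal. The 5 are the 2 of Cdh11 and the 3 of Vcam1, so they stand for 2 genes. Of these, 2 Vcam1 probe sets, 1448162_at and 1415989_at, reached the floor in the knockout array only. Over all 15862 probe sets above the floor the same folds were reached by 3.24% in the higher and 3.28% in the lower direction. Probe sets of a gene above the floor differed in sign for 46.7% of the 3838 genes with at least 2 of them. Cdh2, Cdh11 and Vcam1 were among the genes whose probe sets shared a sign.

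**Figure D3:**
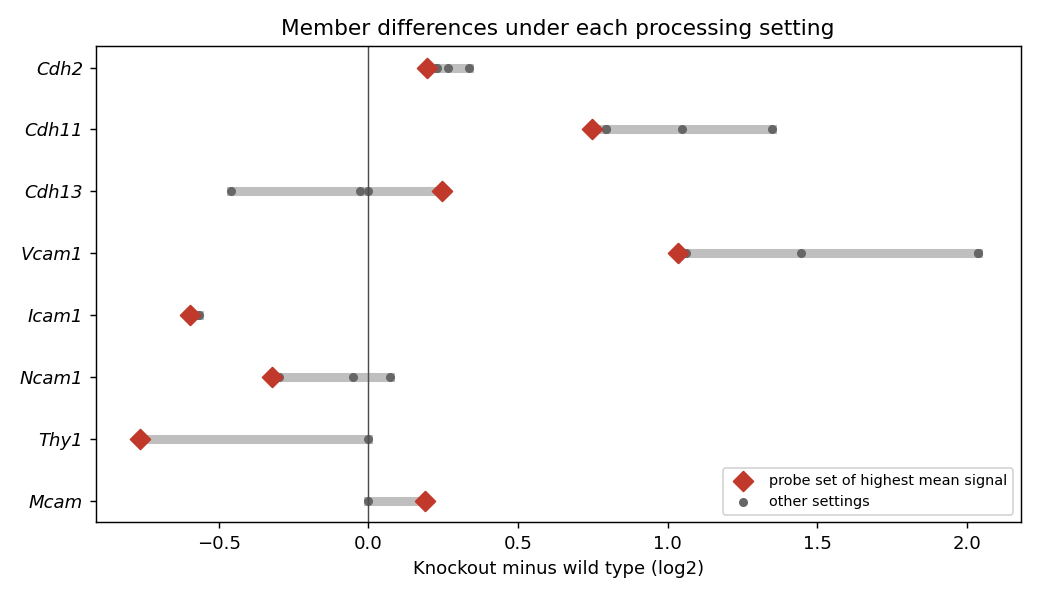
Knockout minus wild-type difference (log2) of each member with its probe set of highest mean signal (red diamonds) and under the other processing settings (grey points, with a bar over their range). Cdh2, Cdh11 and Vcam1 stay above 0, and Icam1 stays below 0 in the 10 other settings, while Cdh13 and Ncam1 cross 0 and Thy1 and Mcam reach 0 with low values raised to 7. Settings that change only the floor leave each difference as it was.

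The other genes of both families were compared with the members from lists of known family members and partners. Of 20 other cadherins, 18 were named on the platform and all 18 were under the floor, Cdh1 (E-cadherin) and Cdh5 (VE-cadherin) among them, so Cdh2 and Cdh11 were the cadherins of these lists with signal above it. Cdh1 read 4.07 in the knockout array and 4.03 in the wild-type array, and Cdh5 read 5.08 in the knockout array and 4.81 in the wild-type array. Both are named after their values were seen. Of 14 catenins and linked adaptors, 10 were above the floor, with none at least 1.5-fold higher, 1 at least 1.5-fold lower and a median of -0.11. Ctnnb1, beta-catenin, read 12.83 in the knockout array and 13.01 in the wild-type array, a difference of -0.17, but a dimmer probe set differed by 0.35. Ctnnal1, an alpha-catenin-like protein, differed by -1.02 with its main probe set and by -0.04 with a dimmer probe set of 1 transcript. The level of that dimmer probe set against the floor is not given here. Afdn (-0.21), the afadin linker, and Vcl (-0.20), vinculin, followed, and Vcl turned to 0.48 with the mean of its probe sets.

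Of 29 other immunoglobulin adhesion molecules, 28 were named and 14 were above the floor, with 7 higher, 7 lower and a median of -0.01. At least 1.5-fold, 1 was higher and 2 were lower. F11r, the junctional adhesion molecule JAM-A, read 8.56 in the knockout array and 7.50 in the wild-type array, a difference of 1.06 (2.09-fold higher), or 0.80 with the mean of its probe sets. L1cam, a neural adhesion molecule, differed by -0.60 and Bcam, a laminin receptor, by -0.59. The knockout values of L1cam and Bcam, 6.88 and 6.84, lie under the floor. L1cam stood at -0.31 when its probe sets were averaged. The count of lower molecules was then 1, and it was 0 with a floor of 8 or with low values raised to 7. With averaged probe sets F11r fell under the floor, so no molecule of the list counted as higher. With the probe set of highest mean signal, Vcam1 and F11r were the 2 immunoglobulin molecules of the lists past 2-fold.

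Binding partners of the members were mixed in direction. Of 20 listed partners 10 were above the floor, 5 higher and 5 lower, with 1 at least 1.5-fold higher and none lower. With averaged probe sets 3 were at least 1.5-fold higher, but no share over all genes is given for that setting. Lama4, a laminin chain bound by the Mcam product, read 9.64 in the knockout array and 9.02 in the wild-type array, a difference of 0.62, or 1.12 when its probe sets were averaged. Itgb1 read 11.12 in the knockout array and 10.83 in the wild-type array (0.29). Its partner in VCAM-1 binding, Itga4, stayed under the floor at 5.74 in the knockout array and 5.91 in the wild-type array. Sdc4, a syndecan that binds Thy-1, differed by -0.47, but by 0.11 with a probe set of 1 transcript, and Fgfr1, a receptor that NCAM and N-cadherin can engage, by -0.44.

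Of 12 shedding and glycosylation enzymes, 11 were named and 9 were above the floor, with 1 at least 1.5-fold higher and none lower, and a median of 0.09. Adam19, a membrane metalloprotease, read 9.05 in the knockout array and 8.26 in the wild-type array, a difference of 0.79. Mmp14, a membrane collagenase, differed by 0.26, and St8sia2, which adds polysialic acid to NCAM, by -0.25. Adam10 and Adam17, the sheddases best known for cutting cadherins and VCAM-1, differed by 0.11 and -0.05 and were named after their values were seen. When its probe sets were averaged, Adam10 stood at 0.27 and Adam17 at 0.42. With the probe set of largest difference, Adam10 stood at 0.59, Adam17 at 1.05 and Mmp14 at 0.87, and 4 enzymes were at least 1.5-fold higher. That setting takes the most extreme probe set of every gene. No share over all genes is given for it, so this count is not a result about the enzymes.

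**Figure D4:**
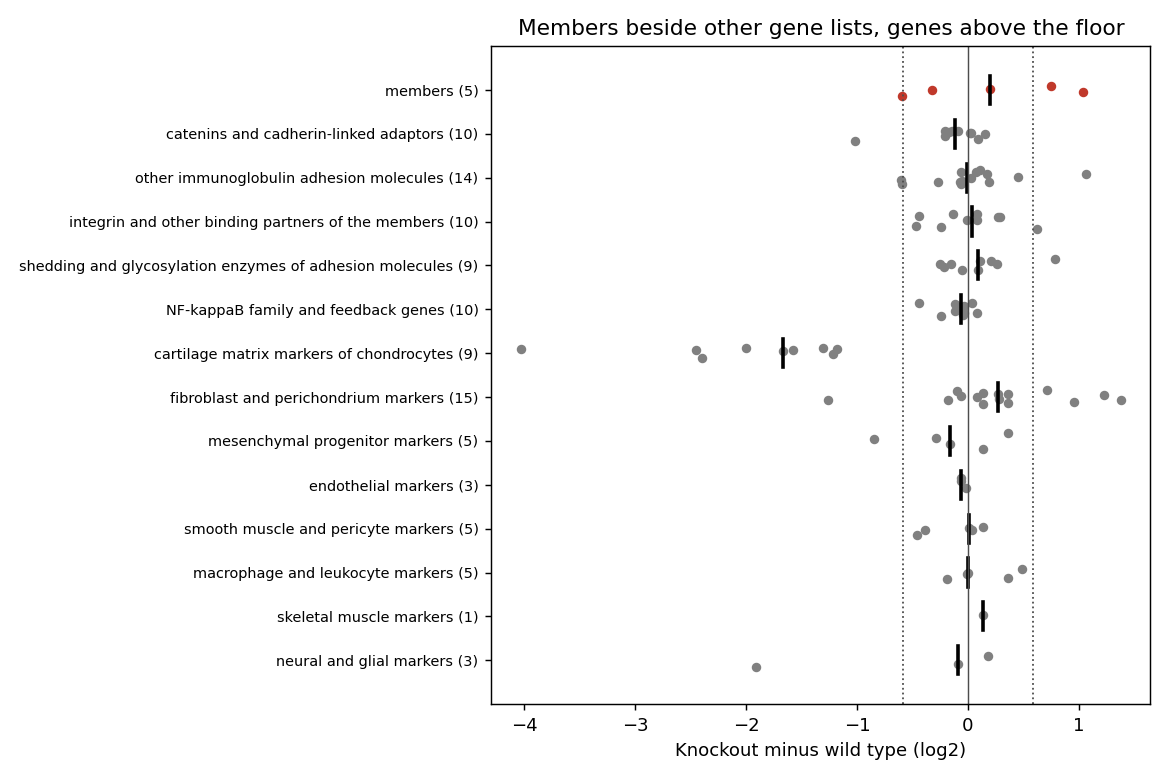
Knockout minus wild-type difference (log2) of the members (red) and of the genes of each other list (grey) above the floor, with the median as a black bar, 1.5-fold as dotted lines and the number of genes in brackets. Cartilage matrix genes have the lowest median, -1.67, and fibroblast and perichondrium markers the highest, 0.27.

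Markers of chondrocytes and of other cell types were read in the same arrays. All 9 cartilage matrix markers above the floor were at least 1.5-fold lower in the knockout array, with a median of -1.67, led by Acan (-4.03), Hapln1 (-2.45) and Cnmd (-2.40). The summed signal of all 10 listed markers, with Matn1 included, was 14.16 in the knockout array and 15.98 in the wild-type array on the log2 scale. Col2a1, the main cartilage collagen, was above the floor in both arrays, at 11.98 in the knockout array and 13.98 in the wild-type array. It was named after its values were seen. Matn1 was the 1 listed marker under the floor in both arrays.

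Of 18 fibroblast and perichondrium markers, 15 were above the floor, 11 higher and 4 lower, with 4 at least 1.5-fold higher, 1 at least 1.5-fold lower and a median of 0.27. Col3a1 (1.38), Fap (1.23) and Postn (-1.26) were farthest from 0. With averaged probe sets the median of this list was 0.34. With the probe set of largest difference it was 0.72, with 7 at least 1.5-fold higher and 1 lower. No share over all genes is given for these settings. The summed signal of all 18 was 15.57 in the knockout array and 15.27 in the wild-type array. Vcam1 and Cdh11 had the direction of most of these markers, and Thy1, itself used as a fibroblast marker, had the other sign under the floor. Their part in the Vcam1 and Cdh11 values was not tested. Mesenchymal progenitor markers had no shared direction, with 2 of 5 above the floor higher and a median of -0.16, led by Nt5e (-0.84), Cd44 (0.36) and Eng (-0.28). Nt5e, the 1 marker of the list at least 1.5-fold lower, stood at -0.18 when its probe sets were averaged, and Cd44 stood at 0.88 with the probe set of largest difference.

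Vcam1, Icam1 and Mcam are also expressed in vessels, and markers of endothelium and leukocytes were compared for that reason. Of 9 endothelial markers 3 were above the floor, Kdr, Erg and Egfl7, with differences of -0.06, -0.06 and -0.02. Erg stood at -0.30 when its probe sets were averaged and at -0.54 with its probe set of 1 transcript, which was under the floor. Pecam1 read 4.77 in the knockout array and 4.81 in the wild-type array, under the floor, and was named after its values were seen. Of 10 macrophage and leukocyte markers 5 were above it, none at least 1.5-fold different, with Laptm5 (0.49), Cd14 (0.36) and Adgre1 (-0.19) farthest from 0. Averaged over its probe sets Laptm5 stood at 0.11, at a signal under the floor. Ptprc, the pan-leukocyte marker, read 4.52 in the knockout array and 4.32 in the wild-type array and was named after its values were seen.

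Of 8 smooth muscle and pericyte markers 5 were above the floor, with a median of 0.01, and Acta2 (-0.46), Cspg4 (-0.39) and Des (0.14) were farthest from 0. With probe sets of 1 transcript Acta2 stood at 0.05, at a signal under the floor. Cspg4 stood at -0.66 when its probe sets were averaged and at -0.94 with the probe set of largest difference, and in both settings 1 marker of this list was at least 1.5-fold lower, against 0 otherwise. Des was the 1 skeletal muscle marker above the floor. Of the neural and glial list, in which NCAM and L1 are also expressed, S100b (-1.91), Mbp (0.18) and Sox10 (-0.09) were above it, and S100b is also a chondrocyte gene. Mbp turned to -0.41 with its probe set of largest difference. None of the 5 osteoblast markers named on the platform was above the floor.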

How the data were processed

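The deposited values are log2 signals that the authors made with RMA, per the labels' design text, in Affymetrix Expression Console 1.1, per the submitters' processing notes. RMA corrects background, brings arrays to a common distribution and summarises probes, so a shift shared by most genes is removed and dim differences are compressed. The sources used here do not say if both arrays were normalized jointly. The log2 scale was inferred from the range of the values, which ran from 3.28 to 14.1 in the knockout and from 3.24 to 14.2 in the wild type. Of 45101 probe sets, 64 were controls, 34945 had 1 symbol, 932 had several and 9160 were not listed; of the 34945, 34741 matched RefSeq GRCm38.p6 by Entrez identifier.

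Groups came from sample titles. Differences were computed in Python 3.11.15 with pandas 2.3.3, on the probe set of highest mean signal, with a floor of 7 and folds of 1.5 and 2. With 1 array per group no test was possible, and the small number of arrays limits precision. Members and lists were chosen with earlier results of these data known. Named genes are all members, the 3 farthest of each list above the floor and Ctnnb1, Itgb1, Itga4, Rela, Nfkbia and Wwp2. Cdh1, Cdh5, Adam10, Adam17, Pecam1, Ptprc, Col2a1 and Xist were added after their values were seen. Counting was tested on simulated data. Alternatives were centring, quantile normalization, lowess with a span of 0.2, floors of 6 and 8 or none, raised low values, and other choices of probe set. Of the 8 members 2, Icam1 and Mcam, matched the promoter table by symbol.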

Additional observations from a re-analysis of the deposited data

How the results depend on the processing

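Under 10 alternatives Vcam1 stood between 1.03 and 2.04, Cdh11 between 0.74 and 1.35, Cdh2 between 0.19 and 0.34 and Icam1 between -0.60 and -0.57, each with its sign kept. Vcam1 and Cdh11 were the 2 members at least 1.5-fold higher in each of the 10. Ncam1 ranged from -0.33 to 0.07 and Cdh13 from -0.46 to 0.25, so their signs turned, in 1 and 2 settings. The count of members at least 1.5-fold lower was 0 after a further quantile normalization and after lowess centring, where Icam1 missed the threshold, and 2 with a floor of 6 or none, which admit Thy1. The count at least 2-fold higher was 2 with the mean of all probe sets and with the probe set of largest difference, where Cdh11 joined Vcam1. No share over all genes is given for these 2 settings. The median of members above the floor, 0.20, became 0.47 with a floor of 8, 0.66 with the mean of all probe sets and 0.47 with probe sets of 1 transcript, each over another set of members. A value was taken to have moved when it changed by more than 0.20, the robust SD of all gene differences, since no replicate spread exists. Of 127 list medians under the alternatives 10 moved and 14 had the other sign. No paired analysis was possible because each group has 1 array. Signal under the floor limits Cdh13, Thy1, Mcam and most Ncam1 probe sets.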

Other observations

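The balance of directions depended on whether genes or probe sets were counted. With 1 probe set per gene, 1.56% of 9897 genes reached 1.5-fold higher signal in the knockout array and 3.56% reached 1.5-fold lower signal. Over all 15862 probe sets above the floor, 3.24% were higher and 3.28% lower. The Cdh11 and Vcam1 probe sets of lower mean signal followed the same way, with 1.35 against 0.75 for Cdh11, and 2.04 and 1.26 against 1.04 for Vcam1. These Vcam1 probe sets of lower mean signal were under the floor in the wild-type array. In the knockout array 1448162_at, at 8.44, was the brightest Vcam1 probe set, so its lower mean comes from the wild-type value. The cause of the difference in balance was not tested.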
